A study of Mus musculus with 18 samples.

Results

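The 10 genes described here are the acid-base genes of the intercalated cells of the kidney: Foxi1, Atp6v1b1, Atp6v0d2, Atp6v1g3, Slc4a1, Slc4a9, Slc26a4, Rhcg, Insrr and Car2. They were taken by gene name from a table of 32675 genes, and each name was found in 1 row. The table holds bulk RNA sequencing of right kidneys from 18 wild type male C57BL/6 mice, labelled as 6-week old, with 6 mice in each of 3 groups. Mice of the PBS group were subjected to chronic social defeat stress (CSDS), that is, on each of 14 days a different aggressive CD-1 mouse attacked them for 10 min, and received phosphate-buffered saline (PBS) by daily intraperitoneal injection. Mice of the FLX group were defeated in the same way and were injected daily with fluoxetine, a selective serotonin reuptake inhibitor, at 10 mg per kg in PBS. Mice of the Ctrl group were not defeated but handled daily. Whether they were injected is not stated, and no undefeated group received fluoxetine, so that defeat and injection cannot be told apart in the comparison of PBS with Ctrl.

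Intercalated cells are scattered among the principal cells of the connecting tubule and collecting duct, where they set the final acidity of the urine. Type A cells secrete acid: a vacuolar proton pump (V-ATPase) in the apical membrane moves protons into the urine, and the exchanger AE1 returns bicarbonate to the blood. Type B cells secrete bicarbonate into the urine through the apical exchanger pendrin, with the pump on the basolateral side. The forkhead factor Foxi1 is needed for both types to form, and carbonic anhydrase II supplies both with protons and bicarbonate. In whole kidney, fewer cells of a type and less RNA per cell cannot be told apart.

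In defeated mice, Car2 was the single gene of the 10 that passed the test across all genes in PBS versus Ctrl, where 3.81% of all genes passed. It was 1.49-fold higher in the PBS group than in the Ctrl group. Its mean in the FLX group lay between them, but neither difference passed (edgeR adjusted p = 0.0685 against PBS and 0.516 against Ctrl). The call in PBS versus Ctrl was lost when PBS replicate 6, whose Car2 lay within the Ctrl range, was included (log2 fold change 0.47, edgeR adjusted p = 0.0637). Slc26a4, the gene of pendrin, was also above every Ctrl mouse in every PBS mouse, with a smaller difference that did not pass. The remaining 8 genes did not pass in any comparison. The widest departures belonged to 1 mouse, PBS replicate 6, in which the type B genes Slc26a4 and Slc4a9 were far above all other mice while another type B gene, Insrr, the type A gene Slc4a1 and Foxi1 were below them.

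Total counts per mouse were 73000203 to 78650116 in the Ctrl group, 72149987 to 78711121 in the PBS group and 48928823 to 79061296 in the FLX group, with FLX replicates 3 to 6 at 52073640 or less. No gene of the 10 had fewer than 600 counts in any mouse, so that counting error was small beside the spread between mice. The study deleted 1 PBS mouse, which it did not name, because of its inflammatory genes. PBS replicate 6 was taken to be this mouse, since it had 22.1 FPKM of S100a8 against 1.82 to 7.65 in the other PBS mice and 49.2 FPKM of Lcn2 against 0.985 to 4.42. Its values lay outside the range of the other 17 mice for 29.2% of 20251 genes, against 4.03 to 23.2% for any other mouse. Comparisons are therefore given over 5 PBS mice, and with all 6 where this changes them. Markers of intercalated cells (Aqp6 at 11.2 to 22.0 FPKM and Atp6v0a4 at 38.6 to 54.5 FPKM) and of principal cells (Aqp2 at 58.3 to 357 FPKM) were present in all 17 other mice.

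Where the promoters of these genes could be read, the letters of the forkhead core motif were looked for, since Foxi1 is a forkhead factor. Of the 10 genes, 5 (Foxi1, Atp6v1b1, Atp6v1g3, Slc26a4 and Rhcg) matched RefSeq promoter windows of 300 bases on GRCm38.p6. The letters TGTTTAC or TATTTAC, on either strand, occurred in 1 of the 5, Atp6v1b1, and in 6.54% of all 32851 promoters. TGTTTAC alone was in 3.65% of them. The stretch from 250 to 51 bases before the RefSeq start is shown for Atp6v1b1, where the match in capitals begins 98 bases before the start, and for Slc26a4, the gene of the 5 whose level differed most between PBS and Ctrl mice. These stretches lie at chr6:83742767-83742966 (plus strand) and chr12:31560035-31560234 (minus strand), and are written along the strand of the gene.
Atp6v1b1: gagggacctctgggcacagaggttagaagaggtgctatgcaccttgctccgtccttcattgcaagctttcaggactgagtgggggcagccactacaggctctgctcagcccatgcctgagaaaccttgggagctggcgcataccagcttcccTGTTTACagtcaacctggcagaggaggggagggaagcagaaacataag
Slc26a4: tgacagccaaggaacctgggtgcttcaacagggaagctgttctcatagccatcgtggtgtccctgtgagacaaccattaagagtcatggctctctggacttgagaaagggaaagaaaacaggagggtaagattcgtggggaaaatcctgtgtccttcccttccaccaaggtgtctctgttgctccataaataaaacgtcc
A match of letters is not a binding site, and their absence from a window says nothing of the factor.

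Levels were compared between genes in FPKM, which is per transcript length. Over the 17 mice without PBS replicate 6, Car2 had the highest median, 130 FPKM, followed by Rhcg with 40.9 and Atp6v1g3 with 25.4. Slc26a4 had a median of 19.2 FPKM, Atp6v1b1 18.2, Slc4a9 13.7, Atp6v0d2 10.9, Foxi1 8.35, Slc4a1 6.69 and Insrr 4.51. Car2 was above Rhcg, Rhcg above Atp6v1g3, Atp6v1b1 above Slc4a9 and Slc4a1 above Insrr in 17 of 17 mice. The other neighbours in this order changed places in some mice: Slc26a4 was above Atp6v1b1 in 14 of 17 mice, and Foxi1 above Slc4a1 in 13 of 17. Car2 is also made by other tubule cells and by red cells, so its level is not that of intercalated cells alone.

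**Figure D1:**
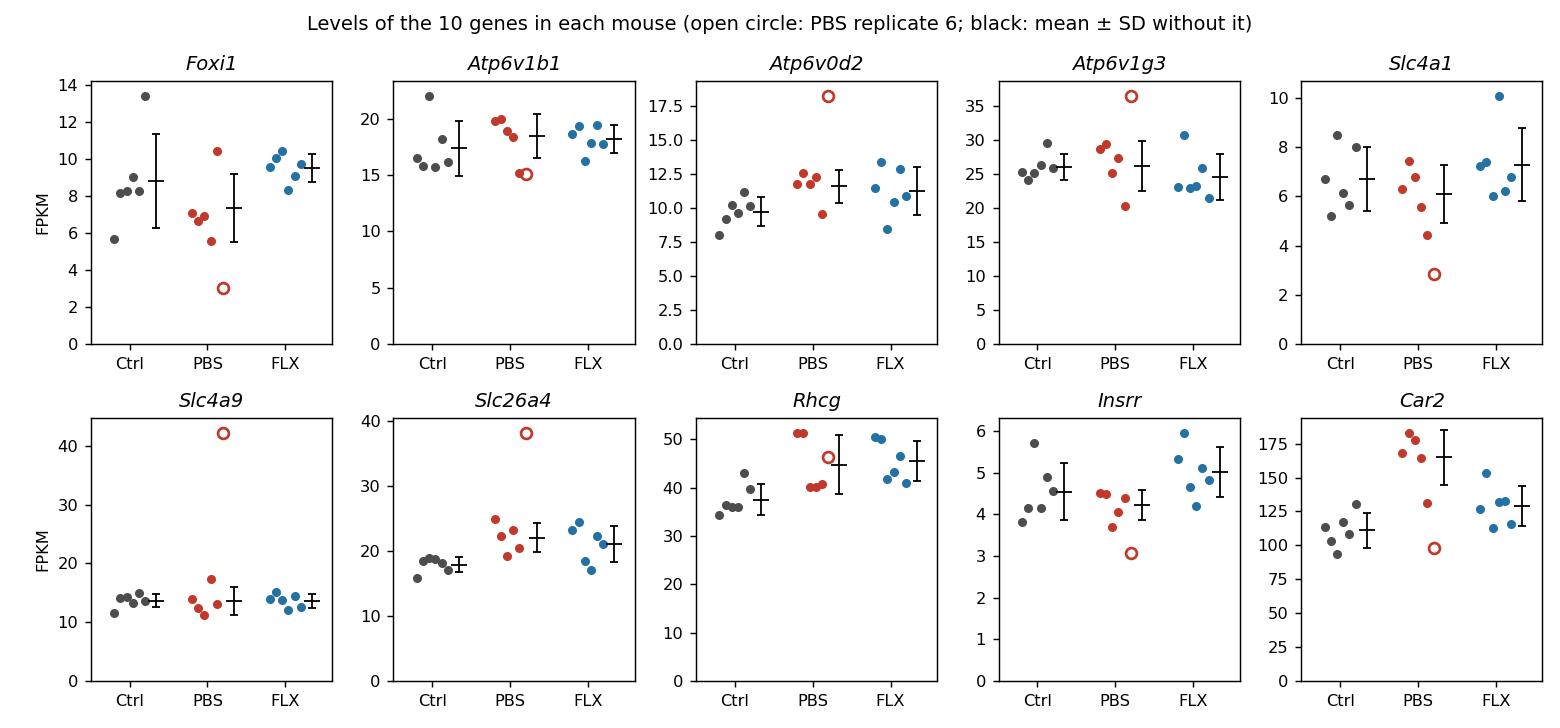
FPKM of each of the 10 genes (vertical axes, from 0) in every mouse of the Ctrl, PBS and FLX groups. Filled circles are mice, the open circle is PBS replicate 6, and the black bar is the mean ± SD without it. Car2 was at 131 to 183 FPKM in the 5 PBS mice and at 93.7 to 130 FPKM in the Ctrl mice, and the open circle lay outside the range of the other mice in 8 of 10 panels.

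The comparison of PBS with Ctrl asks what differed in defeated mice, in which defeat cannot be told apart from injection. Carbonic anhydrase II, encoded by Car2 (ENSMUSG00000027562, chr3:14886273-14900770, plus strand, GRCm38, as the positions below), interconverts carbon dioxide and bicarbonate in the cytosol. Its lowest, median and highest values in Ctrl mice were 93.7, 111 and 130 FPKM. In PBS replicates 1 to 5 it was at 168, 183, 177, 165 and 131 FPKM. The lowest PBS mouse, replicate 5, was just above the highest Ctrl mouse, and the groups did not overlap. The means were 165 ± 20.2 (SD, n = 5) and 111 ± 12.5 FPKM (SD, n = 6). In edgeR's quasi-likelihood test with Benjamini-Hochberg adjustment over 20251 genes, the log2 fold change was 0.58 (SE 0.11, adjusted p = 0.00577). An exact two-sided permutation test of log2(FPKM + 0.1) gave p = 0.00216, the smallest these group sizes allow. These permutation p values, 30 for the 10 genes and 3 comparisons, are unadjusted. Among all genes tested, 3.81% passed at an adjusted p under 0.05 (2.14% higher in PBS), against 1 of the 10 genes. PBS replicate 6 did not share the difference: it had 97.8 FPKM, within the range of the Ctrl mice. With all 6 PBS mice, the log2 fold change was 0.47 and the adjusted p 0.0637, so that the call was lost, where 4.28% of genes passed. Leaving out any other mouse kept it, with adjusted p between 0.00145 and 0.0202.

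Markers of red cells and of perirenal fat also differed among these mice. The summed FPKM of 9 erythroid genes was 38.9 to 772 in Ctrl mice and 145 to 2129 in the 5 PBS mice. PBS replicates 2 and 4 had the highest erythroid sums, 2129 and 1149. Without replicate 2 the log2 fold change of Car2 was 0.54, and without replicate 4 it was 0.56. The sum of 5 fat genes was 0.443 to 56.2 in Ctrl mice and 4.90 to 515 in PBS mice, with the highest value in PBS replicate 5, and without that mouse the log2 fold change of Car2 was 0.66. None of the 7 erythroid or 5 fat genes tested passed edgeR's test, with 0 and 2 higher at an unadjusted p under 0.05. The part of these cells in the level of Car2 was not tested.

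Pendrin, the product of Slc26a4 (ENSMUSG00000020651, chr12:31519827-31559969, minus strand), exchanges chloride for bicarbonate at the apical membrane of type B cells. Slc26a4 was at 15.9, 18.3 and 18.9 FPKM (lowest, median and highest) in Ctrl mice, and at 25.0, 22.2, 19.2, 23.3 and 20.5 FPKM in PBS replicates 1 to 5. Every PBS mouse was above every Ctrl mouse, by a narrow margin for PBS replicate 3. Such a separation upward was seen in 1.77% of genes, and in 2 of the 10. The means were 17.9 ± 1.19 (SD, n = 6) and 22.1 ± 2.27 FPKM (SD, n = 5), and the exact permutation test gave p = 0.00216. In edgeR's quasi-likelihood test the log2 fold change was 0.31 (SE 0.11), with an unadjusted p of 0.00968 and an adjusted p of 0.122, so that it did not pass. With PBS replicate 6 the separation held, since that mouse had 38.2 FPKM, and the log2 fold change was 0.46 (adjusted p = 0.0669). Of the other type B genes, Slc4a9 (AE4, a basolateral anion exchanger; ENSMUSG00000024485) had the same mean of 13.6 FPKM in both groups, with SDs of 1.14 (n = 6) and 2.34 (n = 5). Insrr, an alkali sensor related to the insulin receptor (ENSMUSG00000005640, chr3:87796951-87816101), was at 4.54 ± 0.677 FPKM in Ctrl and 4.22 ± 0.351 FPKM in PBS mice. Whether Slc26a4 differed more than these genes was not tested.

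Rhcg, an ammonia transporter of the collecting duct (ENSMUSG00000030549, chr7:79593363-79617657), had a mean of 37.5 ± 3.23 FPKM in Ctrl (n = 6) and 44.7 ± 6.08 FPKM in PBS mice (n = 5). PBS replicates 1 and 2 were both at 51.4 FPKM, above all Ctrl mice, while replicates 3 to 5 were at 40.1, 40.1 and 40.7 FPKM, within the Ctrl range of 34.3 to 43.1. Its log2 fold change was 0.26 (SE 0.10, edgeR adjusted p = 0.189), and the exact permutation test gave an unadjusted p of 0.0238.

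Of the pump subunits, Atp6v0d2, Atp6v1b1 and Atp6v1g3 encode isoforms that the kidney makes mainly in intercalated cells. Atp6v0d2 (ENSMUSG00000028238, chr4:19876841-19922605) was at 11.7, 12.6, 11.8, 12.3 and 9.57 FPKM in PBS replicates 1 to 5, against 8.06 to 11.2 FPKM in Ctrl mice. All but replicate 5 were above the Ctrl mice, and the log2 fold change was 0.26 (SE 0.12, edgeR adjusted p = 0.257). The exact permutation test gave an unadjusted p of 0.0325 for Atp6v0d2. Atp6v1b1 (ENSMUSG00000006269, chr6:83742990-83758855) was at 17.4 ± 2.44 FPKM in Ctrl and 18.4 ± 1.93 FPKM in PBS mice. Atp6v1g3 (ENSMUSG00000026394, chr1:138273738-138289462) was at 26.1 ± 1.91 and 26.2 ± 3.63 FPKM, and the signs of its log2 fold change of 0.02 and of that of Slc4a9, 0.01, turned with upper-quartile scaling.

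Foxi1 (ENSMUSG00000047861, chr11:34204338-34208089) was at 7.12, 6.67, 6.95, 5.57 and 10.5 FPKM in PBS replicates 1 to 5, with a mean of 7.35 ± 1.84 (SD, n = 5). In Ctrl mice it was at 5.67, 8.28 and 13.4 FPKM (lowest, median and highest; mean 8.81 ± 2.54). The groups overlapped through Ctrl replicate 1 and PBS replicate 5, and the log2 fold change was -0.26 (SE 0.17, edgeR adjusted p = 0.459). Slc4a1 (ENSMUSG00000006574, chr11:102348824-102365280), which encodes AE1 of type A cells, is also a red cell gene. Its means were 6.70 ± 1.30 FPKM in Ctrl and 6.10 ± 1.16 FPKM in PBS mice, while Hbb-bs, a globin gene, ranged from 13.1 to 937 FPKM over the 17 mice. In PBS replicate 2, which had the highest Hbb-bs, Slc4a1 was at 7.43 FPKM, the highest of the PBS mice but inside the Ctrl range of 5.22 to 8.50.

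**Figure D2:**
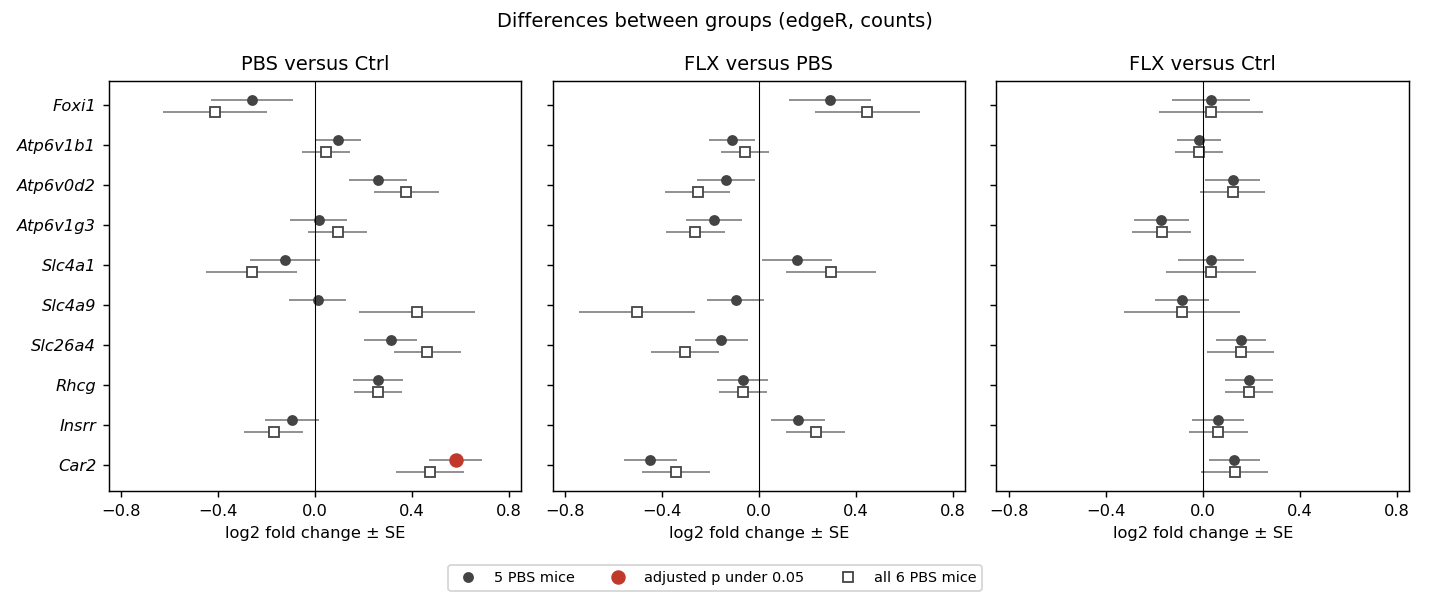
Log2 fold change ± SE (horizontal axes, edgeR on counts) of each gene in the 3 comparisons, with 5 PBS mice (circles) and all 6 (open squares); red marks an adjusted p under 0.05. Car2 in PBS versus Ctrl, at 0.58 with 5 PBS mice, is the single red point, and Slc4a9 moves from 0.01 to 0.42 in that comparison when PBS replicate 6 is included.

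At an unadjusted p under 0.05, 4 of the 10 genes were higher in PBS than in Ctrl mice (Car2, Slc26a4, Rhcg and Atp6v0d2) and 0 were lower, where 9.18% of all genes were higher and 8.76% lower. The median log2 fold change of the 10 genes was 0.06, against -0.01 over all genes. No gene of the 10 reached the study's own rule of an unadjusted p under 0.05 with an absolute log2 fold change over 1, which 3.28% of genes met. Of 21 further V-ATPase subunit and accessory genes tested, 0 passed the adjusted threshold and 5 were higher at an unadjusted p under 0.05, with a median log2 fold change of 0.04. Atp6v0a4, the a4 subunit of the same cells, was at 41.0 ± 2.06 FPKM in Ctrl (n = 6) and 49.3 ± 5.89 FPKM in PBS mice (n = 5), with a log2 fold change of 0.28 (edgeR adjusted p = 0.0783). Of 18 other intercalated cell genes, 1 passed, Tfcp2l1, a transcription factor of the collecting duct (log2 fold change 0.55, edgeR adjusted p = 0.0494). Of 8 principal cell markers 1 passed, Scnn1g, a subunit of the epithelial sodium channel (0.35, adjusted p = 0.0458), and of 9 acid-base genes of the proximal tubule 1 passed, Pck1 (0.80, adjusted p = 0.00929). Of 6 acid-base sensing genes none passed edgeR's test and 2 were higher at an unadjusted p under 0.05. Of 7 loop and distal tubule markers, Calb1 (0.95, adjusted p = 0.00354) and Trpm6 (0.77, adjusted p = 0.00551) passed. None of 6 proximal tubule markers passed edgeR's test, with 2 lower at an unadjusted p under 0.05. Of 5 neutrophil and tubule injury markers, S100a8 (2.96, adjusted p = 0.0205) and S100a9 (2.66, adjusted p = 0.0285) were higher in PBS mice even without PBS replicate 6.

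The comparison of FLX with PBS asks what fluoxetine changed in defeated mice. It shares its PBS mice with the comparison above. Car2 was at 113, 129 and 153 FPKM (lowest, median and highest) in FLX mice, with a mean of 129 ± 14.5 FPKM (n = 6), against 165 ± 20.2 FPKM (n = 5) in PBS mice. The groups overlapped, with 3 of the 6 FLX mice below the lowest PBS mouse. The log2 fold change was -0.45 (SE 0.11), with an unadjusted p of 0.000629 and an edgeR adjusted p of 0.0685, so that it did not pass, and the exact permutation test gave p = 0.0173. Without Ctrl replicate 3, PBS replicate 5 or FLX replicate 2 it passed, with adjusted p of 0.0305, 0.0190 and 0.0450, and with all 6 PBS mice it was at -0.34 (adjusted p = 0.310). With only FLX replicates 1 and 2, whose depth matched that of the other groups, it was at -0.28, and no call could be read from that fit, in which 0 of 21863 genes passed edgeR's test and 1323 had an unadjusted p under 0.05.

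In this comparison 0 of the 10 genes passed edgeR's test, where 0.726% of all genes did, and 1, Car2, had an unadjusted p under 0.05, where 11.1% of all genes did. With all 6 PBS mice 0 passed, and 4 were lower in FLX mice at an unadjusted p under 0.05 (Car2, Slc26a4, Atp6v1g3 and Slc4a9). In that fit 2425 of 19946 genes had an unadjusted p under 0.05. DESeq2, which called more unchanged genes than edgeR on simulated data with the same spread for every gene, called Car2 (adjusted p = 0.00748). None of the 10 met the study's own rule, which 1.9% of genes met. Foxi1 had the highest log2 fold change, 0.29 (SE 0.17, adjusted p = 0.574). In the FLX mice it was at 8.35, 9.66 and 10.4 FPKM (lowest, median and highest), above all PBS mice but replicate 5. The exact permutation test on FPKM gave p = 0.0303 for Foxi1 and also for Insrr, which was at 4.19 to 5.96 FPKM in FLX mice with 5 of 6 above all PBS mice. On log2(FPKM + 0.1) the median of all genes was 0.08 higher in FLX than in PBS mice, in the direction of both results. In edgeR, on scaled counts, the log2 fold change of Insrr was 0.16 (adjusted p = 0.673). The median log2 fold change of the 10 genes was -0.10. Slc26a4 was at 21.1 ± 2.82 FPKM (n = 6), and its log2 fold change was -0.15 (adjusted p = 0.671). Slc4a1 was at 7.28 ± 1.47, Slc4a9 at 13.6 ± 1.16 and Rhcg at 45.5 ± 4.14 FPKM. The pump genes Atp6v1b1, Atp6v0d2 and Atp6v1g3 were at 18.2 ± 1.21, 11.3 ± 1.78 and 24.6 ± 3.37 FPKM, with log2 fold changes of -0.11, -0.14 and -0.19. Elsewhere, Pck1 (-0.83, edgeR adjusted p = 0.0209) and the carbonic anhydrase gene Car14 (-0.67, adjusted p = 0.0339) of the proximal acid-base list were lower in FLX mice, as was S100a8 (-3.14, adjusted p = 0.0402). None of the V-ATPase, other intercalated cell, principal cell, acid-base sensing, tubule, fat or erythroid genes passed edgeR's test, while 5 of 7 erythroid genes were lower at an unadjusted p under 0.05.

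In FLX versus Ctrl, 0 of the 10 genes passed edgeR's test and 0 had an unadjusted p under 0.05, where 3.67% and 20.4% of all genes did. None met the study's own rule, which 2.24% of genes met. The log2 fold changes ran from -0.17 (Atp6v1g3) to 0.19 (Rhcg, adjusted p = 0.288), with a median of 0.05. On FPKM, the exact permutation test gave p = 0.00649 for Rhcg, 0.0325 for Slc26a4 and 0.0433 for Car2, each higher in FLX mice. The scale matters here: on log2(FPKM + 0.1), the median difference of all genes between FLX and Ctrl mice was 0.06, against -0.01 on scaled counts. In limma on FPKM 979 genes were called higher and 235 lower in FLX than in Ctrl mice, against 422 and 322 in edgeR, and 192 and 63 against PBS mice, where edgeR called 62 and 85. These 3 genes did not pass in limma on FPKM. Among the other genes, Avpr1a, a vasopressin receptor of intercalated cells (0.65, edgeR adjusted p = 0.0285), Atp6v0a2 of the pump (0.23, adjusted p = 0.0405), Scnn1g (0.37, adjusted p = 0.0312) and Trpm6 (0.65, adjusted p = 0.0168) were higher in FLX mice. No gene of the proximal acid-base, sensing, fat, erythroid, proximal tubule or injury lists passed edgeR's test. At an unadjusted p under 0.05, 3 proximal acid-base genes were lower, and 1 sensing and 2 fat genes were higher.

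PBS replicate 6 stood apart in these genes as it did in the table as a whole. It was outside the range of the other 17 mice for 8 of the 10 genes, against 29.2% of all genes, and for 0 to 3 of the 10 in any other mouse. The directions differed among the genes. Slc4a9 was at 42.3 FPKM against 11.3 to 17.4 in the other 17 mice, 3.24-fold the median of the other PBS mice, and Slc26a4 was at 38.2 against 15.9 to 25.0 FPKM, 1.72-fold. Insrr, the third gene of type B cells, was by contrast below all other mice at 3.06 FPKM. Of the type A and shared genes, Slc4a1 was at 2.86 FPKM against 4.42 to 10.1, and Foxi1 at 3.02 FPKM against 5.57 to 13.4, each under all other mice and at 0.455 and 0.435 times the median of the other PBS mice. The ratio of Slc26a4 to Slc4a1 was 13.4 in this mouse and 1.70 to 4.64 in the others, and that of Slc4a9 to Slc4a1 was 14.8 against 1.19 to 3.14.

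**Figure D3:**
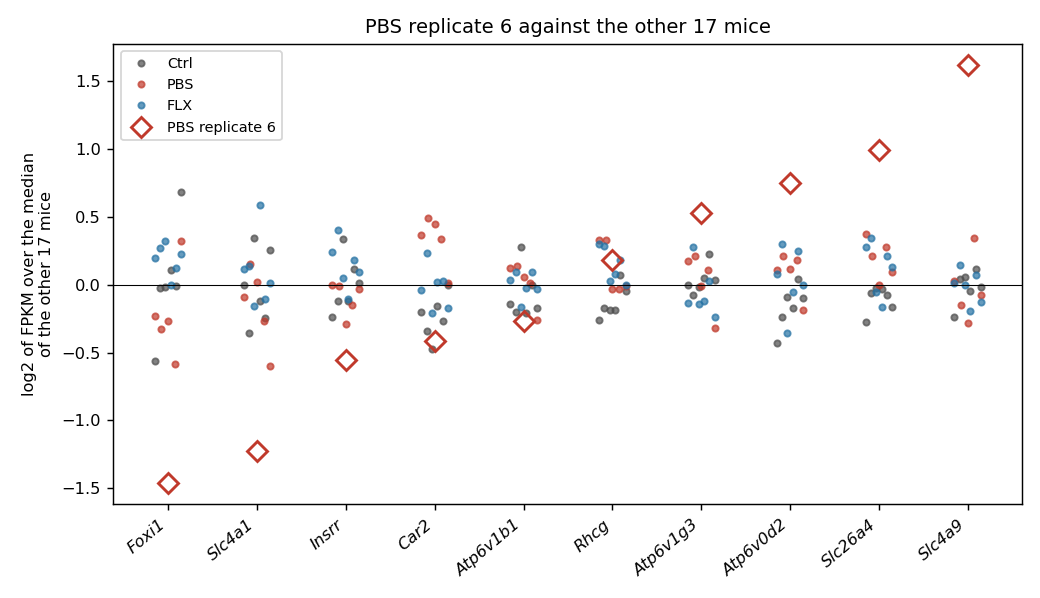
Log2 of FPKM over the median of the 17 mice other than PBS replicate 6 (vertical axis) for each gene (horizontal axis, ordered by the value in PBS replicate 6). Small circles are mice of the 3 groups and the open diamond is PBS replicate 6, whose Foxi1 and Slc4a1 lie below and whose Slc26a4 and Slc4a9 lie above all other mice.

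The pump genes also split in this mouse. Atp6v0d2 (18.2 FPKM against 8.06 to 13.4) and Atp6v1g3 (36.5 against 20.4 to 30.8) were above all other mice, with Atp6v0a4 at 92.3 FPKM against 38.6 to 54.5, while Atp6v1b1, at 15.1 FPKM, was just below the lowest other mouse at 15.2. Over all 20251 genes, this mouse was above all other mice in 3101 and below them in 2807, together 29.2%, which the counts below are to be read against. Of 21 further V-ATPase genes 5 were above all other mice and 0 below, widely expressed ones included, such as Atp6ap2 at 49.5 FPKM against at most 37.6. Atp6v0d1 at 55.5 FPKM and Atp6v1b2 at 53.8 FPKM were inside the range, and the ratio of Atp6v0d2 to Atp6v0d1 was 0.329 against 0.148 to 0.234 in the others. Rhcg and Car2 were inside the range. Of 18 other intercalated cell genes, 6 were above all other mice, among them Car15 at 114 FPKM against 31.2 to 74.3 and the type A genes Dmrt2 (2.32-fold the median of the other PBS mice) and Adgrf5 (2.42-fold). Below all other mice were 3, among them Hmx2, a factor of type B cells (0.764 against at least 1.31 FPKM), so that type A and type B genes were found on both sides. The fixed markers Aqp6 (15.4 FPKM) and Kit (1.14 FPKM) of the same list were inside the range. Of 8 principal cell markers 4 were above and 1 was below. Aqp2, at 360 FPKM, was just over the highest other mouse at 357. Of 6 proximal tubule markers 4 were below and 0 above, with Slc7a13 at 6.44 FPKM against 172 to 383. The 9 proximal acid-base genes went both ways, 3 above and 2 below, as did the 7 loop and distal tubule markers, 1 above and 3 below. All 5 neutrophil and tubule injury markers were above, but S100a8, S100a9 and Lcn2 among them had served to pick this mouse, so theirs is no separate result. The part of cell composition and tissue sampling in these values was not tested, and with 1 mouse there is no replicate.

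Variation from mouse to mouse within groups was compared between the genes. Deviations from the group mean of log2 CPM (counts scaled to library size) were correlated for the 45 pairs. Both genes of a pair come from the same libraries, which differ in depth and in cell composition. With 18 mice the median r was 0.24 and 7 pairs had an adjusted p under 0.05 for Pearson's r. Without PBS replicate 6 the median r was 0.48, 37 of 45 pairs were positive and 16 passed, so that the values rest in part on that mouse. Over all pairs of 12126 genes, the median r was 0.0011 with 18 mice and 0.0017 without it, and 50.2% of pairs were positive in the latter case, against 82.2% of the 45. P values are from permutation and were adjusted over the 45 pairs.

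**Figure D4:**
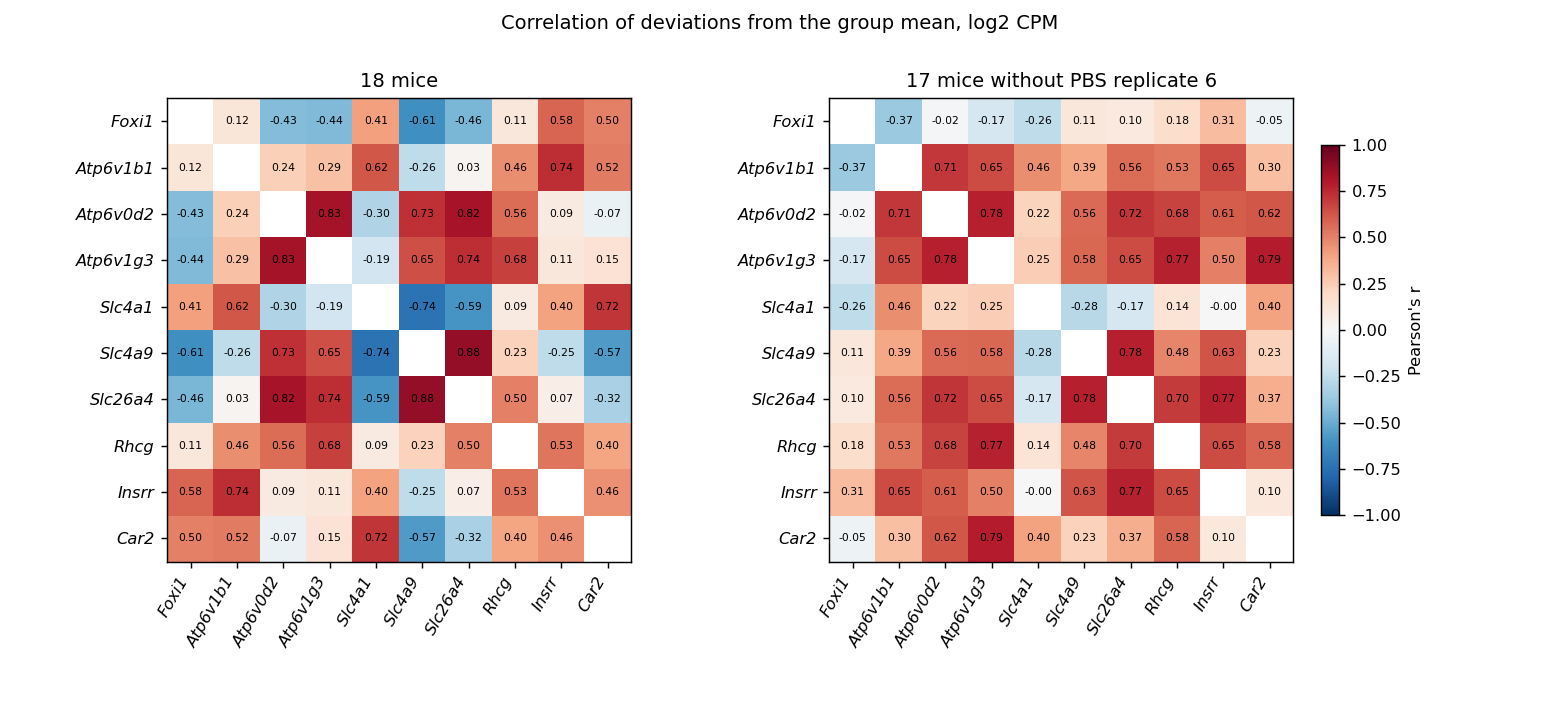
Pearson's r between deviations from the group mean of log2 CPM for each pair of genes (both axes), over 18 mice (left) and over 17 mice without PBS replicate 6 (right). Without that mouse 37 of 45 pairs are positive, and Foxi1 and Slc4a1 have the palest rows.

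Slc4a9 and Slc26a4, the exchangers of type B cells, had the highest r with 18 mice, 0.88 (rho 0.80; permutation p = 2e-05 and 0.00027, adjusted 0.0009 and 0.0081). Without the 2 mice farthest in Slc4a9 it was 0.72, and over the 17 mice 0.78 (rho 0.86). Atp6v0d2 and Atp6v1g3 of the pump had an r of 0.83 over 18 mice (rho 0.74; permutation p = 0.00041 and 0.00151, adjusted 0.0084 and 0.0113), of 0.70 without the 2 farthest mice, and of 0.78 over the 17 mice. Over the 17 mice the r of Foxi1 with the other 9 genes ran from -0.37 (Atp6v1b1) to 0.31 (Insrr), and none of these pairs had an adjusted permutation p under 0.05. Slc4a1 likewise had no such pair over the 17 mice. Its r with Slc4a9 was -0.74 over 18 mice (rho -0.48; permutation p = 0.0306 and 0.0745, adjusted 0.106 and 0.224) but -0.28 over 17, so that it rests on PBS replicate 6. The genes outside the 10 whose deviations were most like the mean of the 10, among 12116 genes over 18 mice, were AI838599 (r = 0.85), Hsd11b2 (0.80), Mir8099-2 (0.79), Tmem86b (0.77) and Mrpl35 (0.77). Of these, Hsd11b2, which protects the mineralocorticoid receptor from glucocorticoids in principal cells, left the first 5 without PBS replicate 6, when Nphs1, a gene of podocytes, entered.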

How the data were processed

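Poly(A) RNA of right kidneys was sequenced from strand-marked libraries. According to the methods, the authors used fastp, HISAT-3N (GRCm38) and StringTie, while the submitters' processing notes list cutadapt 1.9, HISAT2 2.0.4, StringTie 1.3.4d and UMI-tools. The authors deposited FPKM, estimated counts and gene positions in 1 table. How the counts were obtained is not given. The deposited estimated counts are whole, yet more genes held 4 counts (median 720 per mouse) than 3 (484.5), so they were treated as estimates. Mice were grouped by sample title. According to the methods, each defeated mouse was kept across a perforated divider from a CD-1 mouse, and Ctrl mice in cages of that type. Whether Ctrl mice shared cages during the defeat period, or any mice litters, is not stated. P values set group differences against the spread between these mice alone.

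Counts were fitted with edgeR 4.0.16 (R 4.3.3; TMM, filterByExpr, quasi-likelihood F-test, 3 groups in 1 model, 17 mice), with Benjamini-Hochberg adjustment over 20251 genes at 0.05. The SE of an edgeR log2 fold change was derived from the test, as its absolute value over the square root of F. The fit was tested on simulated data. FPKM is given as mean ± SD, and log2(FPKM + 0.1) was compared by exact two-sided permutation (numpy 2.4.6). Correlations used log2 CPM (prior count 2) and 100000 pairings, with ranks from scipy 1.17.1. Alternatives were DESeq2 1.42.0, upper-quartile scaling, no filter, limma 3.58.1 on log2 FPKM with 3 pseudocounts, all 6 PBS mice, a replicate block, only the groups compared, FLX replicates 1 and 2 only, and each mouse left out. Every one of the 10 genes is named. Genes of other lists are named where they passed the adjusted threshold, or as fixed markers. Car15, Dmrt2, Adgrf5, Hmx2, Atp6ap2 and Slc7a13 were chosen after their values were seen. The 10 genes and the lists were chosen with earlier results of these data known. Promoters are from RefSeq.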

Additional observations from a re-analysis of the deposited data

Results flagged for a closer look

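Of 40 sets of values checked for a single distant mouse (10 genes in the Ctrl, FLX, 6 PBS and 5 PBS mice), 5 held one. The limit used flags about 1 in 20 independent sets. These sets share mice and libraries, so their number cannot be set against that rate. PBS replicate 6 was far above the other PBS mice in Slc4a9 (42.3 FPKM, next 17.4), Slc26a4 (38.2 FPKM, next 25.0) and Atp6v0d2 (18.2 FPKM, next 12.6). Among the other 5 PBS mice, replicate 5 was low in Atp6v0d2, at 9.57 FPKM against 11.7 in the next mouse. In the FLX group, replicate 4 was high in Slc4a1, at 10.1 FPKM against 7.39 in the next. PBS replicate 6 enters none of the comparisons over 5 PBS mice, and there it exceeded the highest Ctrl mouse in Slc4a9, Slc26a4 and Atp6v0d2 (Ctrl mice up to 14.9, 18.9 and 11.2 FPKM), in Atp6v1g3 (36.5 FPKM, Ctrl mice up to 29.7) and in Rhcg (46.4 FPKM, Ctrl mice up to 43.1).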

How the results depend on the processing

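The call of Car2 in PBS versus Ctrl was lost with all 6 PBS mice, when 0 genes of the 10 passed, and held under the other 9 alternatives and in each of the 17 fits without 1 mouse. On simulated data DESeq2 called more unchanged genes than edgeR did. Every simulated gene had the same biological spread between mice, unlike the real genes, so how far this bears on its further calls here was not tested. In FLX versus PBS, DESeq2 called 1 gene (Car2, adjusted p = 0.00748) and fits without 1 mouse called 0 to 1. In FLX versus Ctrl no alternative called any of the 10. The genes of the other lists that passed numbered 7 in PBS versus Ctrl, and 11 with DESeq2, 3 with the replicate block and 3 to 10 without 1 mouse. In FLX versus PBS they numbered 3, and 10 with DESeq2 and 0 to 5 without 1 mouse. In FLX versus Ctrl they numbered 4, and 2 with all 6 PBS mice, 2 without a filter, 0 with the replicate block and 1 to 13 without 1 mouse. For these genes, the block and leaving out mice were added after seeing the data. The causes were not tested. The median r among the 10 genes was 0.24 with 18 mice and 0.48 without PBS replicate 6. The counts of genes with an exact permutation p under 0.05 stayed within 1.5 times their value with the other pseudocounts and with all 6 PBS mice. With all 6 PBS mice, however, the permutation p of Car2 rose from 0.0173 to 0.173 in FLX versus PBS. In PBS versus Ctrl it rose from 0.00216 to 0.0238, and the groups then overlapped.

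Replicate numbers are shared between groups. Of 18 pairs with the same number, 4 had a correlation of deviations over 0.1 (-0.38 to 0.36). The own number was the best match in 7 of 36 cases, with 6 mice in each group. These values show no clear pairing. Whether mice with the same number shared cages or processing was not tested. With the number as a block, 1, 0 and 0 of the 10 genes passed, and the adjusted p of Car2 in PBS versus Ctrl was 0.0219.

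Of 30 log2 fold changes (10 genes, 3 comparisons), 11 changed sign somewhere, each of at most 0.17 in size and none called. In PBS versus Ctrl, Atp6v1g3 and Slc4a9 were at -0.0331 and -0.0408 with upper-quartile scaling, at -0.0162 and -0.0096 with the replicate block, and at -0.0024 and -0.0124 (pseudocount 0.1), -0.002 and -0.011 (1) and -0.0025 and -0.0126 (0.01) in limma. Without 1 mouse they ran from -0.0297 to 0.104 and from -0.1164 to 0.0844. In FLX versus PBS, Slc4a9 and Rhcg were at 0.0114 and 0.0293, 0.0101 and 0.0286, and 0.0116 and 0.0294 in limma with these pseudocounts. With FLX replicates 1 and 2 only, Atp6v0d2, Slc4a9, Slc26a4 and Rhcg were at 0.052, 0.0381, 0.0625 and 0.1185. Slc4a9 ran from -0.1688 to 0.032 without 1 mouse. In FLX versus Ctrl, Atp6v1b1 was at 0.0746, 0.0707 and 0.075 in limma, and with FLX replicates 1 and 2 only Atp6v1b1, Atp6v1g3 and Slc4a9 were at 0.099, 0.011 and 0.0564. Without 1 mouse, Foxi1 ran from -0.0643 to 0.1898, Atp6v1b1 from -0.0447 to 0.0476 and Slc4a1 from -0.0496 to 0.1003. The causes were not tested. The part of the lower depth of FLX replicates 3 to 6 in the FLX comparisons was not tested, and with FLX replicates 1 and 2 only 0 and 4 of 21863 genes passed in FLX versus PBS and FLX versus Ctrl. Bulk tissue gives no count of intercalated cells.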
